A study of Drosophila melanogaster with 8 samples.

Results

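The genes described here serve sugar sensing and lipid synthesis in the fly: the transcription factor genes sug, Mondo and SREBP, the enzyme genes ATPCL, AcCoAS, ACC, FASN1 and Desat1, and the insulin-responsive α-glucosidase gene tobi. They were chosen by name and function, except that sug was chosen because its signal was lower after a light pulse, so its difference between groups is a description and supports nothing. All 9 genes were found, each with 1 probe set, among 18769 probe sets tested. The flies were wild type (strain Canton-S), aged 3 to 5 days, and were kept at 25 °C on standard sugar food under cycles with 12 h of light for 4 days. In the pulsed group, 30 min of saturating light began at ZT 15 (zeitgeber time, hours after lights on), when the flies had been in the dark for 3 h, and heads were frozen 1 h after it ended, at ZT 16.5. The unpulsed group was sampled at the same ZT with no pulse, and each group has 4 Affymetrix arrays of head RNA. The labels name no mutation or transgene, give no sex, and do not state whether each array had its own flies, so errors describe the spread between these samples and can be technical in part.

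In Drosophila, dietary sugar acts on transcription through Mondo, the fly counterpart of mammalian ChREBP and MondoA, which binds DNA together with its partner bigmax (Mlx). One of the genes this pair activates in larvae is sug (sugarbabe), a zinc finger factor of the Gli-similar family, which in turn is needed for full expression of lipogenic enzymes on a sugar diet. These enzymes turn sugar carbon into fat: ATPCL makes cytosolic acetyl-CoA from citrate, AcCoAS makes it from acetate, ACC carboxylates it to malonyl-CoA, FASN1 builds saturated fatty acids from that, and Desat1 introduces a double bond. SREBP is a membrane-bound factor that promotes lipid synthesis and in flies is controlled by phosphatidylethanolamine. The fat body, which combines functions of liver and adipose tissue, is a main site of this pathway, and fly heads contain fat body around the brain.

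The deposited values are log2 signals per probe set, and array medians over all probe sets lay between 2.95 and 3.07 log2 units. Across probe sets, 7 arrays correlated with each other at 0.995 to 0.998, and pulsed replicate 2 with those at 0.985 to 0.988. Of the markers of head tissue, the photoreceptor channel gene trp lay between 12.8 and 13.3 log2 units on every array and the neuronal gene elav between 8.68 and 9.49. Pulsed replicate 2 also carried transcripts of the male tract and gut, with the male peptide gene SP at 8.16 log2 units against at most 2.21 on the other arrays and the trypsin gene alphaTry at 8.60 against at most 2.47. The summed signal of 3 yolk protein genes, which are made by female fat body, was between 7.05 and 7.30 log2 units on pulsed replicates 3 and 4 and unpulsed replicate 1, and between 12.2 and 13.6 on the other 5 arrays. With limma's test and Benjamini-Hochberg adjustment over all probe sets, 0 of 18769 passed an adjusted p of 0.05 (percent called 0), and 902 had an unadjusted p under 0.05.

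The transcript of sug was lower in pulsed heads by 0.84 log2 units (SE 0.13, n = 4 per group), a 1.79-fold difference with a 95% interval of 1.44- to 2.21-fold. Its log2 signal was 7.20, 7.01, 6.85 and 6.61 on pulsed replicates 1 to 4, and 7.85, 7.61, 7.86 and 7.69 on unpulsed replicates 1 to 4. Every pulsed array lay below every unpulsed one, and the pulsed arrays were spread more widely (SD 0.25) than the unpulsed ones (SD 0.12). Groups that do not overlap with pulsed arrays lower were found for 1.26% of all probe sets, which says nothing more about sug, since it was chosen for this contrast. Among the 18769 probe sets, 16 including sug had a difference at least as low, and groups did not overlap for 2 of these 16. Leaving out each array in turn gave differences between -0.93 log2 units (without pulsed replicate 1) and -0.73 (without pulsed replicate 4). In these bulk samples, fewer cells that express a gene and less RNA per cell cannot be told apart.

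Of the arrays' own controls for RNA integrity, GAPDH separated the same groups, while actin and eIF-4a overlapped between them. The 3′ minus 5′ log2 difference of the GAPDH control was 0.805 to 0.928 in pulsed heads and 0.977 to 1.09 in unpulsed heads (two-sided exact permutation p = 0.0286, the smallest that 70 arrangements of 4 against 4 can give). For actin it was 1.00 to 1.34 in pulsed and 1.21 to 1.58 in unpulsed heads (exact permutation p = 0.429). For eIF-4a it was 2.81 to 3.15 and 3.13 to 3.42 (exact permutation p = 0.0571). The mean of the actin, eIF-4a and GAPDH controls was 1.68 ± 0.0724 in pulsed and 1.89 ± 0.120 in unpulsed heads (SD, n = 4 each, exact permutation p = 0.0571). That mean ran from 1.63 to 1.79 in pulsed and from 1.77 to 2.01 in unpulsed heads, so it largely follows the groups. Its part and that of the pulse are therefore poorly separated. Differences with this covariate, here and below, are given without intervals and are not corrections for RNA integrity. With that mean as a covariate the sug difference was -0.998 log2 units, and with the mean yolk protein signal as a covariate it was -0.81. Without pulsed replicate 2, the array with gut and male tract transcripts, it was -0.87.

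**Figure D1:**
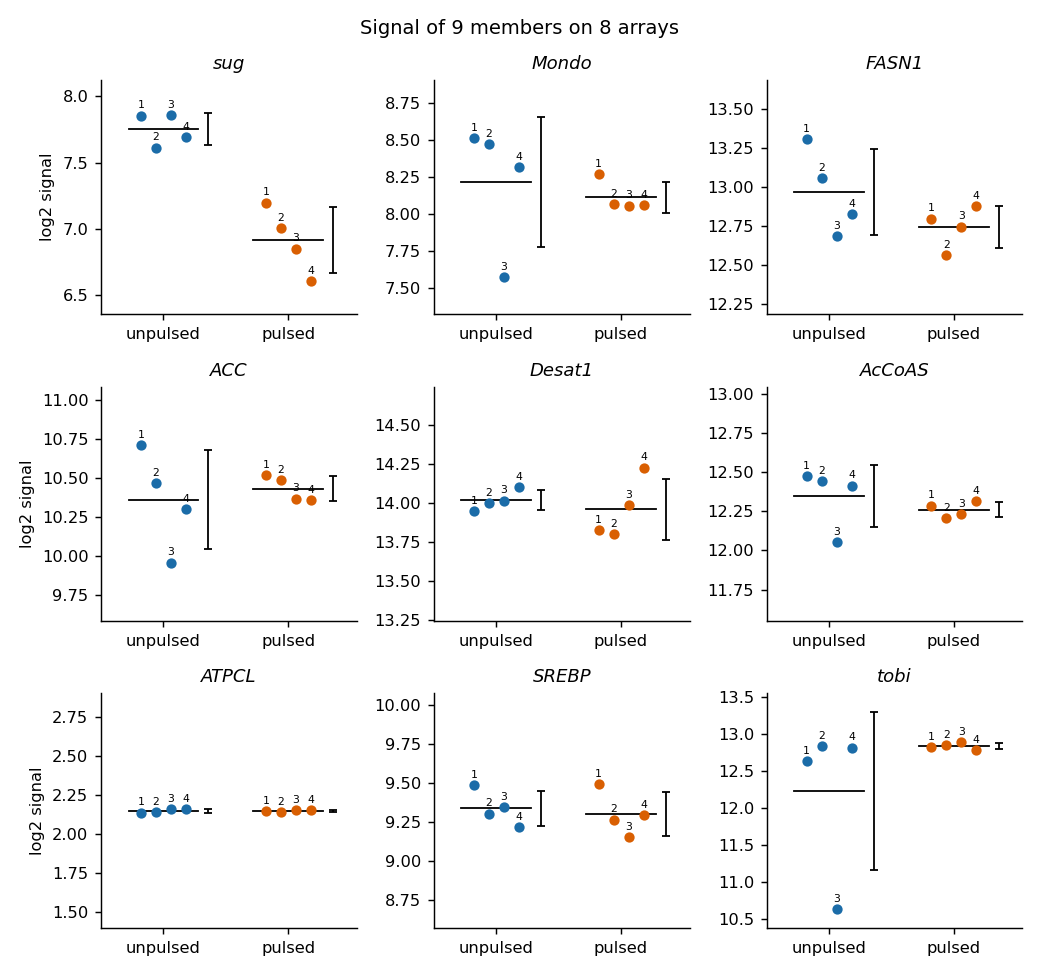
Log2 signal of each of the 9 genes on the 8 arrays. Points are arrays labelled with their replicate number, horizontal lines are group means and the bars beside them span 1 SD either way. The axes of the panels start at different values. The sug points separate by group, and unpulsed replicate 3 lies below the other unpulsed arrays for Mondo, FASN1, ACC, AcCoAS and tobi.

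The other 2 transcription factors of the group differed less between pulsed and unpulsed heads. Mondo was at 8.27, 8.07, 8.06 and 8.06 log2 units on pulsed replicates 1 to 4 and at 8.51, 8.47, 7.57 and 8.31 on unpulsed replicates 1 to 4. Unpulsed replicate 3 was the lowest of all 8 arrays, and the other unpulsed arrays were the 3 highest. The mean difference was -0.11 log2 units (95% interval -0.60 to 0.39), and without unpulsed replicate 3 it was -0.32 (-0.50 to -0.14). It was -0.0073 without unpulsed replicate 1.

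SREBP ran from 9.15 to 9.49 log2 units in pulsed and from 9.21 to 9.49 in unpulsed heads, with full overlap. Its difference was -0.036 log2 units (95% interval -0.24 to 0.16), so with 4 arrays per group the values allow an increase or a decrease within these bounds. It was -0.10 without pulsed replicate 1 and 0.014 without pulsed replicate 3. SREBP on unpulsed replicate 3 was 0.0078 log2 units above the mean of the other unpulsed arrays, unlike Mondo on the same array, which was 0.86 below it.

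Among the enzymes that supply and use acetyl-CoA, AcCoAS, the acetyl-CoA synthetase gene, was at 12.3, 12.2, 12.2 and 12.3 log2 units on the pulsed arrays and at 12.5, 12.4, 12.1 and 12.4 on the unpulsed ones. Apart from unpulsed replicate 3, which was the lowest of all, every unpulsed array was above every pulsed one. The difference was -0.086 log2 units with all arrays (95% interval -0.31 to 0.14) and -0.18 without unpulsed replicate 3 (-0.26 to -0.11). It was -0.043 without unpulsed replicate 1.

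The acetyl-CoA carboxylase gene ACC, whose enzyme commits acetyl-CoA to fatty acid synthesis, was at 10.5, 10.5, 10.4 and 10.4 log2 units in pulsed heads and at 10.7, 10.5, 9.96 and 10.3 in unpulsed heads. The pulsed arrays lay inside the range of the unpulsed ones. The difference of 0.071 log2 units (95% interval -0.29 to 0.43) became -0.063 (-0.31 to 0.18) without unpulsed replicate 3 and 0.19 without unpulsed replicate 1.

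The fatty acid synthase gene FASN1 was at 12.8, 12.6, 12.7 and 12.9 log2 units on pulsed replicates 1 to 4 and at 13.3, 13.1, 12.7 and 12.8 on the unpulsed ones. The 2 highest arrays were unpulsed replicates 1 and 2, and the lowest was pulsed replicate 2, but the groups overlapped. After sug, FASN1 had the lowest difference of the 9 genes, -0.22 log2 units (SE 0.14, 95% interval -0.56 to 0.11), with -0.32 when unpulsed replicate 3 was left out and -0.11 when unpulsed replicate 1 was.

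Desat1, the gene of the main acyl-CoA desaturase, was at 13.8, 13.8, 14.0 and 14.2 log2 units in pulsed heads and between 13.9 and 14.1 in unpulsed heads. Pulsed replicate 4 was the highest of the 8 arrays and pulsed replicates 1 and 2 were the lowest, so the groups overlapped, with a difference of -0.057 log2 units (95% interval -0.28 to 0.17). It was -0.0035 without pulsed replicate 2 and -0.15 without pulsed replicate 4. The 3′ minus 5′ covariate turned it to 0.071. The signal of the ATP citrate lyase gene ATPCL was at 2.14 to 2.16 log2 units on all 8 arrays, a span of 0.024, and was the one of the 9 below the 40th percentile of mean signal. Fbp1 and eloF, genes of the larval fat body and the oenocytes, were as flat near the bottom of the scale (2.46 to 2.49 and 2.26 to 2.31 log2 units). The ATPCL difference of -0.0016 log2 units is therefore the value of a dim probe set, from which no level of the transcript was read.

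tobi, whose expression in Drosophila responds to insulin-producing cells and to adipokinetic hormone, was nearly constant on 7 arrays. It was at 12.8, 12.8, 12.9 and 12.8 log2 units on the pulsed arrays and at 12.6, 12.8 and 12.8 on unpulsed replicates 1, 2 and 4. Unpulsed replicate 3 was at 10.6, which is 2.14 log2 units below the mean of the other 3 unpulsed arrays. The mean difference of 0.61 log2 units (SE 0.50, 95% interval -0.57 to 1.79) rested on that array, and was 0.075 (-0.063 to 0.21) without it.

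In limma's fit to the whole table, 0 of the 9 genes had an adjusted p under 0.05, and the percent called over all probe sets was also 0. The lowest adjusted p of the 8 genes other than sug was 1.00, and their 95% intervals all contained a difference of 0. Differences were below 0 for 7 of 9 genes, and for 10995 of all 18769 probe sets. The 7 include sug, chosen for its fall, and the dim ATPCL. The median was -0.057 log2 units against -0.0031 over all probe sets. Without unpulsed replicate 3 the pulsed arrays lay below all remaining unpulsed arrays for 3 of the 9 genes, sug, Mondo and AcCoAS, against 2.22% of all probe sets. That array was singled out after its values were seen, and sug was among the 3 with all arrays as well, so these counts describe the arrays and do not test the pulse.

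**Figure D2:**
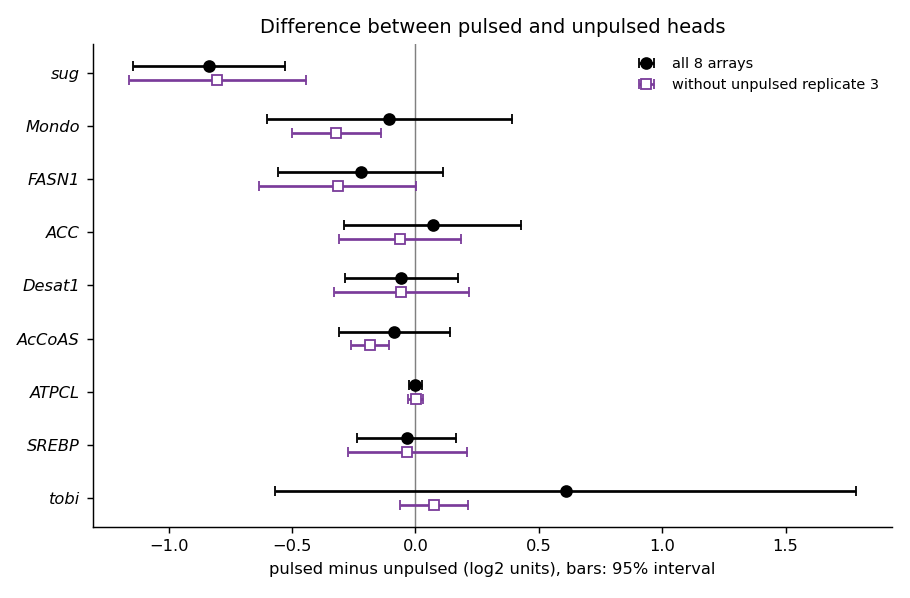
Pulsed minus unpulsed difference of each gene in log2 units, with its 95% interval from limma's fit over all probe sets. Filled circles are from all 8 arrays and open squares are from the 7 arrays without unpulsed replicate 3. The interval of sug lies below 0 in both, and the tobi difference of 0.61 becomes 0.075.

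Unpulsed replicate 3 thus set much of the spread within the group of 9. It was the lowest of the 8 arrays for 4 of them (tobi, Mondo, ACC and AcCoAS) and the lowest unpulsed array for FASN1, while 10.9% of all probe sets, and 19.0% of named genes above the filter on dim probe sets, were lowest on that array. FASN1 lay 0.38 log2 units below the mean of the other unpulsed arrays there, AcCoAS 0.39, ACC 0.54, Mondo 0.86 and tobi 2.14. On the same array sug was 0.14 above that mean, and Desat1 was level with it (-0.00081).

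The same array was low for some other genes of carbohydrate and lipid metabolism and high for others. In a list of sugar-responsive genes it was the lowest of 8 arrays for 6 of 14 measured, among them Pepck1, of gluconeogenesis (13.3 against a mean of 14.2 log2 units on the other unpulsed arrays), Aldh-III, an aldehyde dehydrogenase gene (9.45 against 9.91), and the trehalose transporter gene Tret1-1 (12.1 against 12.6). In the same list bigmax was 0.38 log2 units above the mean of the other unpulsed arrays and cbt 0.30 above it, and the list median was -0.21. For enzymes of citrate and NADPH supply it was the lowest for 4 of 5, including the malic enzyme gene Men (11.8 against 12.3). In triglyceride synthesis and lipid droplets it was the lowest for 6 of 13, with the perilipin gene Lsd-2 at 10.7 against 11.3 and the lipase gene bmm at 9.74 against 10.2. But the list median was -0.021, and the acyltransferase gene Dgat2 was 0.64 above the other unpulsed arrays, at low signal (4.39 against 3.75). In fatty acid elongation and activation it was the lowest for 3 of 14, and ifc, a sphingolipid desaturase gene, was 0.42 above and the acyl-CoA binding protein gene Acbp1 0.29 above. The median of 0.018 in that list lies between the dim eloF (0.014) and FASN3 (0.022). It was the lowest for 0 of 7 genes of SREBP processing and phospholipid synthesis.

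Among α-glucosidase genes, that array was the lowest for 3 of 11, with a median of 0.014 log2 units. Mal-A2, Mal-A3, Mal-A4, Mal-A6, Mal-A7 and Mal-A8 were near the bottom of the scale on all unpulsed arrays, at most 2.69. They could hardly be lower on unpulsed replicate 3, and the median is the value of Mal-A6. Of the brighter genes, Mal-A1 was at 4.79 against 5.31, GCS2alpha lay 0.074 below the other unpulsed arrays and Mal-A5 0.085 above. Mal-B1 was at 5.60 log2 units on unpulsed replicate 3 against 6.25 on the other unpulsed arrays, and Mal-B2 at 11.7 against 12.4. In insulin and adipokinetic hormone signalling it was the lowest for 2 of 9, with a median of -0.028. One was AkhR, the receptor gene of adipokinetic hormone, at 8.86 against 9.40, while foxo was 0.18 above the other unpulsed arrays. Markers of the fat body moved in part with these genes: the storage protein gene Lsp2 was at 13.9 against 14.9, and the summed signal of 6 measured markers was 16.2 log2 units on that array against 16.5 to 16.7 on the other 7. Of those 6, Lsp2 and Obp99b were lowest there of all 8 arrays. The lipoprotein gene apolpp, at 14.2, and Fer1HCH were lowest there among the unpulsed arrays, but within the range of all the other arrays. They lay 0.17 and 0.065 log2 units below the mean of the other unpulsed arrays, and fit lay 0.35 below it. Fbp1 was near the bottom of the scale on all arrays. The oenocyte gene Cyp4g1 was at 3.44 log2 units on unpulsed replicate 3, between 5.77 and 7.70 on 6 other arrays, and at 11.7 on pulsed replicate 2. Of 5 neuronal markers, 3 were lowest on unpulsed replicate 3: the GABA receptor gene Rdl was at 7.10 against 8.28 log2 units, the sodium channel gene para at 2.89 against 3.74 and the active zone gene brp at 3.65 against 4.10. The signals of para and brp were low on all arrays, and the list median of -0.46 is the value of brp. The brighter nSyb and elav lay 0.075 and 0.32 below the other unpulsed arrays and were not lowest there. Of 5 glial markers 1 was lowest there, and of 2 photoreceptor markers 0. The mean 3′ minus 5′ difference was also highest on unpulsed replicate 3, at 2.01, with unpulsed replicate 2 close to it at 1.97. The part of tissue content or RNA integrity in these values was not tested.

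**Figure D3:**
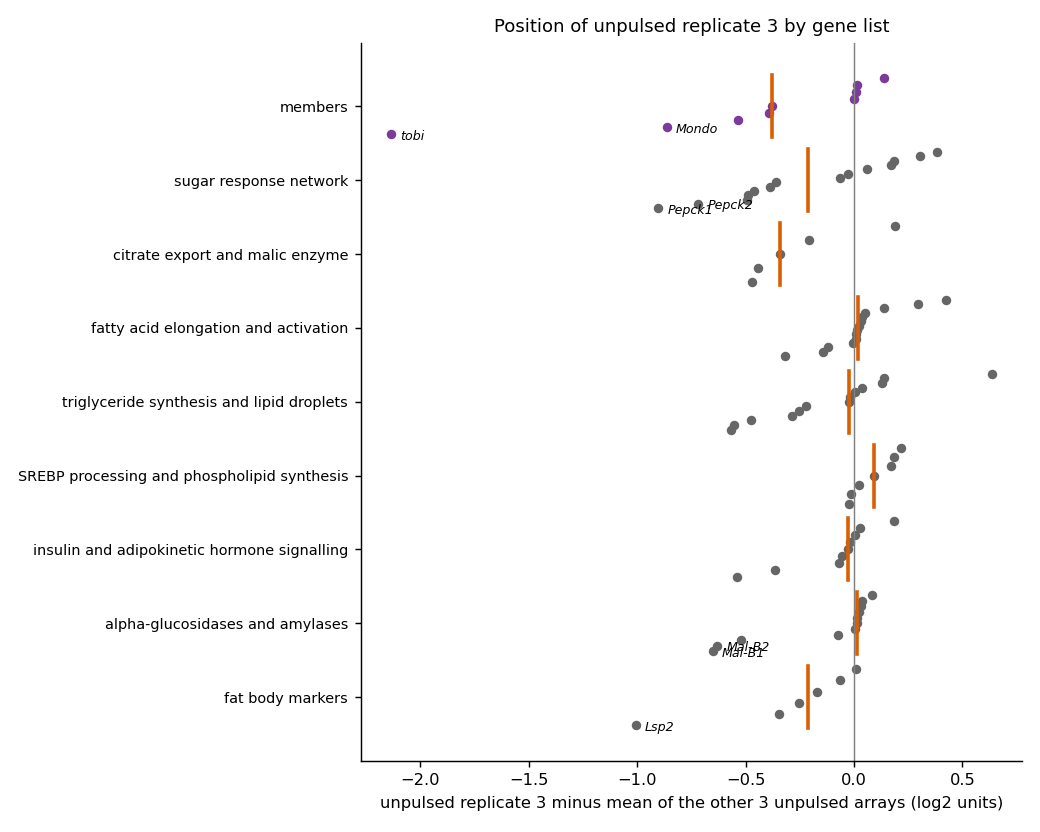
Log2 signal on unpulsed replicate 3 minus the mean of the other 3 unpulsed arrays, by gene list. Points are genes, in purple for the 9 genes described here, and orange bars are list medians. tobi lies at -2.14 and Mondo at -0.86, and the median of the 9 genes is -0.38.

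How the 9 genes varied together within groups was described by Pearson's r of the values less their group means over 8 arrays. The points share the array, so its RNA and depth of labelling can enter several genes at once, by unlike amounts, and r is given as a description only. Mondo and AcCoAS had r = 0.96, AcCoAS and tobi 0.94, Mondo and tobi 0.94 and Mondo and ACC 0.91. Without unpulsed replicate 3, over 7 arrays, these were 0.51, -0.64, -0.38 and 0.76. The likeness of Mondo and AcCoAS to tobi therefore rested on that array.

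The deviations of sug had low correlations over 8 arrays with those of the enzymes it is known to act on in larvae, with r of -0.16 for FASN1, 0.14 for ACC and -0.28 for AcCoAS. Without unpulsed replicate 3 these were -0.015, 0.62 and -0.17, so the value for ACC rested on that array. With Desat1 they ran opposite, at r = -0.85 over 8 arrays and -0.88 without unpulsed replicate 3. The named genes whose deviations were most like those of sug were YME1L (r = 0.99), TBC1D23, eIF3m, beag and Pp4-19C (0.98 each), and 97 probe sets in all had r of at least 0.9 with it. When r was taken over the values with the group difference kept in, none of those 5 stayed among the 5 most alike, which were CG14495 (0.94), Ubi-p63E (0.93), trbd, Hydr2 and wdp (0.92 each). For tobi, the genes most alike within groups were Desi (r = 0.996), CG14441 (0.995), Jhbp12, CG31075 and AkhR (0.99 each), a choice of gene made after the values were seen. All of these were lowest on unpulsed replicate 3, and 197 probe sets had r of at least 0.9 with tobi. Desi was at 3.15 log2 units on that array and at 3.65 to 3.68 on the others, and CG14441 at 3.95 against 4.86 to 4.91.

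Other genes of the pathway were taken from 7 lists, each gene standing as its brightest probe set on average, and 0 genes in these lists had an adjusted p under 0.05 in limma's fit. At an unadjusted p of 0.05, 2.4% of all probe sets were higher and 2.41% lower. Against this background, 1 of 14 sugar-responsive genes was higher and 0 were lower, with a list median of -0.058 log2 units against -0.0014 over all named genes, and of 0.010 without pulsed replicate 4. The higher one was Taldo, the transaldolase gene of the pentose phosphate pathway (0.15 log2 units, SE 0.054, adjusted p = 0.965). Both the TGF-beta ligand gene daw and the repressor gene cbt, which respond to sugar through Mondo and bigmax, had negative differences of -0.20 (SE 0.11) and -0.22 (SE 0.17), with overlapping groups, and cbt was at -0.11 without pulsed replicate 2. Adjusted for the 3′ minus 5′ difference, cbt was at 0.059 and daw at -0.32. bigmax, the partner of Mondo, was at 7.80 log2 units in pulsed and 7.77 in unpulsed heads (difference 0.023, 95% interval -0.27 to 0.31).

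Triglyceride and lipid droplet genes had 11 of 13 positive differences, against 5608 of 11982 over all named genes. Their median was 0.12 log2 units, which was 0.077 without unpulsed replicate 3. At an unadjusted p of 0.05, 2 of 13 were higher, against 2.4% of all probe sets, and 0 after adjustment. bmm, the lipase that breaks down stored fat, was at 10.31 to 10.54 log2 units on the pulsed arrays and at 9.74 to 10.29 on the unpulsed ones, without overlap. Such groups with pulsed arrays higher were found for 1.3% of all probe sets. Its difference of 0.33 (SE 0.12, adjusted p = 0.965) was 0.21 without unpulsed replicate 3. Lsd-1 (0.25, SE 0.083, adjusted p = 0.954) and Lsd-2 (0.28, SE 0.14), which coat lipid droplets, had positive differences too, and Lsd-2 was at 0.14 without unpulsed replicate 3. With the 3′ minus 5′ covariate, which is poorly separated from the groups, bmm was at 0.11, Lsd-1 at 0.19 and Lsd-2 at 0.0084. The diacylglycerol acyltransferase gene mdy, of the last step of triglyceride synthesis, was at 0.025 (SE 0.072).

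Among insulin and adipokinetic hormone genes, 3 of 9 were lower at an unadjusted p of 0.05, against 2.41% of all probe sets, and 0 after adjustment. foxo, the transcription factor that insulin keeps out of the nucleus, was at -0.39 log2 units (SE 0.15, adjusted p = 0.971), S6k, a growth kinase, at -0.14 (SE 0.047) and InR, the insulin receptor, at -0.16 (SE 0.061). InR was at 6.14 to 6.38 on pulsed and 6.41 to 6.56 on unpulsed arrays, without overlap, whereas the foxo and S6k groups overlapped. Groups without overlap and with pulsed arrays lower were found for 1.26% of all probe sets. All 3 genes were lowest on pulsed replicate 2, the array with gut and male tract transcripts. Without that array foxo was at -0.28, S6k at -0.11 and InR at -0.11. With the 3′ minus 5′ covariate foxo was at -0.16, S6k at -0.11 and InR at -0.069. The insulin-like peptide genes Ilp2 (0.039, SE 0.075) and Ilp5 (0.17, SE 0.13) differed by less than 2 SE, and the probe set of Akh was between 1.75 and 1.77 log2 units on all arrays.

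In the list of SREBP processing and phospholipid synthesis, Pis, the phosphatidylinositol synthase gene, was at -0.18 log2 units (SE 0.059, adjusted p = 0.954). Its groups did not overlap, as for 1.26% of all probe sets with pulsed arrays lower. Pis was at -0.14 without pulsed replicate 2 and at -0.097 with the 3′ minus 5′ covariate. SCAP, the escort protein of SREBP, was at -0.047 (SE 0.031) and at -0.016 without pulsed replicate 2. The protease genes S1P and S2P, whose products cut SREBP, were at -0.0084 (SE 0.16) and 0.029 (SE 0.091), and the ethanolamine kinase gene eas was at -0.096 (SE 0.060), with -0.043 when unpulsed replicate 3 was left out and 9.3e-05 with that covariate. The list median was -0.0084, or 0.031 without unpulsed replicate 2 and -0.060 without pulsed replicate 1. At an unadjusted p of 0.05, 1 of 7 genes was lower, against 2.41% of all probe sets.

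Fatty acid elongation and activation genes had a median of 0.076 log2 units. Differences were above 0 for 10 of 14, against 5608 of 11982 over all named genes. The 10 include Desat2, near the bottom of the scale on all arrays, and FASN3 and FASN2, near it except on pulsed replicate 2. At an unadjusted p of 0.05, 1 of 14 was higher, against 2.4% of all probe sets. That gene was the acyl-CoA binding protein gene Acbp2 (0.15, SE 0.063, and 0.043 with the 3′ minus 5′ covariate), followed by Hacd2, of the elongation cycle (0.12, SE 0.050), and Fatp3, a fatty acid transport gene (0.16, SE 0.092). FASN3 and FASN2, the fatty acid synthase genes of other tissues, had signals of 3.99 and 3.23 on pulsed replicate 2 and at most 2.42 and 2.25 on the other arrays. Without that array the list median was 0.0037. This lies between the dim FASN3 (0.0016) and eloF (0.0057), so it says little about the brighter genes. Genes of citrate and NADPH supply had a median of 0.010, which was -0.096 without unpulsed replicate 3, with mAcon1, the aconitase gene, at -0.060 (SE 0.14), Idh, of isocitrate oxidation, at 0.045 (SE 0.062), and Sirt4, a mitochondrial sirtuin gene, at 0.032 (SE 0.064), and 0 of 5 had an unadjusted p under 0.05.

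The α-glucosidase list had a median of 0.45 log2 units, which was 0.0027 without pulsed replicate 2, and 8 of its 11 genes were highest on pulsed replicate 2. On all other arrays Mal-A2, Mal-A3, Mal-A4, Mal-A6, Mal-A7 and Mal-A8 were near the bottom of the scale. The 0.0027 is the value of Mal-A3, so it says little about the brighter genes. Mal-A7 was at 6.36 there and at most 2.69 on the other arrays, Mal-A1 was at 8.38 against at most 5.81, and Mal-A2 at 2.35 against at most 2.13. The summed signal of 10 measured gut markers was 10.1 log2 units on that array and 7.67 to 8.19 on the others. The 9 genes described here were not highest on that array in any case, and tobi was at 12.8 there, level with the other pulsed arrays.

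**Figure D4:**
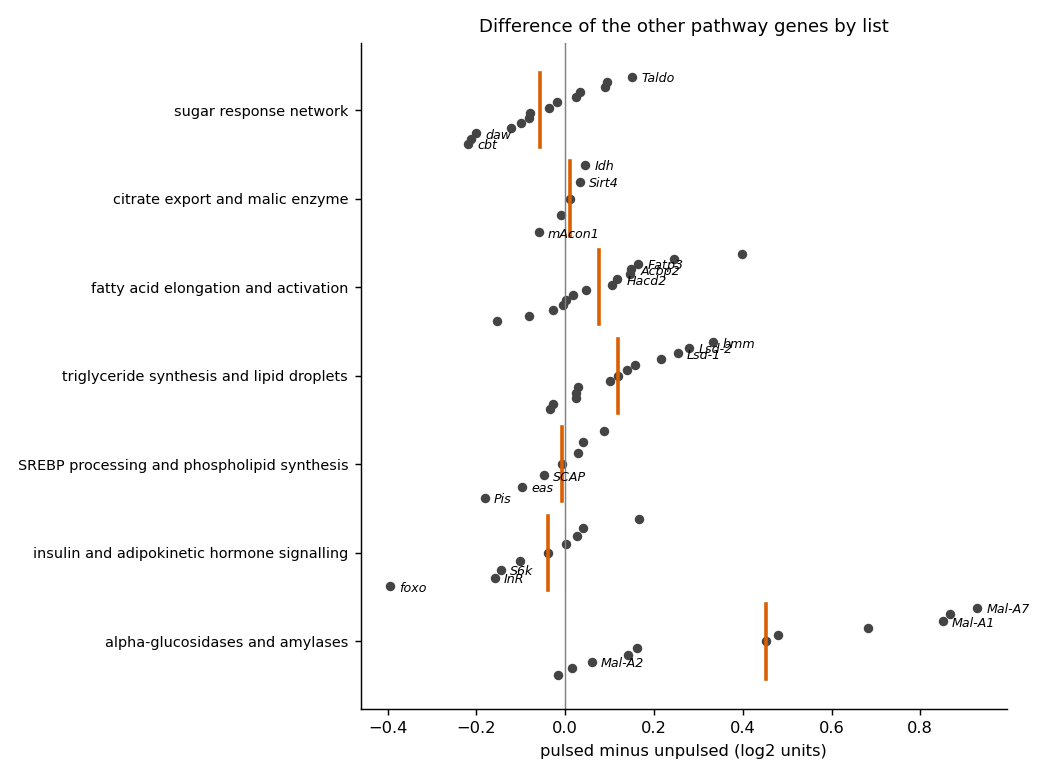
Pulsed minus unpulsed difference in log2 units of the measured genes in 7 pathway lists. Points are genes, names mark, per list, the 3 genes with the smallest unadjusted p, and orange bars are list medians. Medians lie between -0.058 and 0.12 except for the α-glucosidases at 0.45, whose Mal-A genes were high on pulsed replicate 2.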

How the data were processed

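Head RNA was isolated with Trizol, biotin-labelled by in vitro transcription and read on Affymetrix arrays, per the labels' protocols. The deposited table holds log2 values, a scale read from the values themselves. How the authors summarised probes, removed background and normalized was not stated in the material at hand, so the values were used as deposited. Of 18952 probe sets, 183 controls were dropped and 18769 tested. In the platform annotation, 13647 carry a single symbol, 402 carry more than 1 and were left unnamed, and 4903 do not appear. For 13544 the symbol was brought up to date by gene number with the RefSeq gene table of assembly Release 6 plus ISO1 MT.

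Groups were those of the labels. The comparison was a two-sided limma fit (version 3.58.1, R 4.3.3, lmFit and eBayes) with p-values adjusted by Benjamini-Hochberg across the 18769 and a threshold of 0.05, checked on simulated data. Intervals are the 95% intervals of that fit, and 4 arrays per group limit their precision. Summed signals are the log2 of summed linear values. Members and lists were chosen with earlier results of these data known. Named are all 9 members, the 3 genes with the lowest unadjusted p in each pathway list and the 5 genes most like sug. Further list genes, and the genes most like tobi, were picked after their values were seen. Arrays with the same replicate number did not deviate together (r from -0.070 to 0.078), so the replicate block was only an alternative. The others were 2 further normalizations (quantile, median centring), a pseudocount of 16, removal of dim probe sets (11261 stayed), a trended, robust spread, array weights, covariates (yolk protein, 3′ minus 5′ difference, replicates 1 and 2 against 3 and 4), and omission of each array.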

Additional observations from a re-analysis of the deposited data

Results flagged for a closer look

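Within groups of 4 arrays, a highest or lowest value stood apart from the rest by Dixon's criterion for 3 groups of the 9 genes and for 5 groups of the pathway genes named by rule. Chance gives about 1 in 20 groups, and 60 groups were examined. tobi was at 10.6 log2 units on unpulsed replicate 3, where the next unpulsed array was at 12.6, and AcCoAS was at 12.1 on the same array, with the next at 12.4. Mondo was at 8.27 on pulsed replicate 1, with the other pulsed arrays at 8.07 or below, a gap of 0.20 log2 units. Sirt4 (8.05) and Pis (11.4) were high on unpulsed replicate 3, and SCAP (8.25) was low on pulsed replicate 2. Mal-A7 (6.36) and Mal-A2 (2.35) were high on pulsed replicate 2. Both arrays were left out, 1 at a time, in the refits below.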

How the results depend on the processing

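The number of probe sets called was 0 with the replicate block, as without it, and 0 in each refit that left out 1 array. It was 1 with the filter on dim probe sets, 1 with median-centred arrays and 1 with a trended and robust spread, 2 at an adjusted p of 0.1, 902 at an unadjusted p of 0.05 and 2936 with array weights, which were 6.81 for pulsed replicate 3 and 10.1 for unpulsed replicate 2 and at most 1.64 for the others. With array weights, where 2936 of all 18769 probe sets were called, 1 of 14 sugar-responsive genes and 1 of 5 of citrate and NADPH supply were called. So were 3 of 14 of fatty acid elongation, 3 of 13 of triglyceride synthesis, 1 of 7 of SREBP processing and 4 of 9 of insulin signalling. These counts were not tested against the share over all probe sets. With the 3′ minus 5′ covariate the difference was -0.47 log2 units for Mondo, -0.22 for ACC -0.28 for tobi and 0.071 for Desat1, against -0.11, 0.071, 0.61 and -0.057 without it, and the list medians were -0.11 for citrate and NADPH supply, 0.028 for fatty acid elongation and 0.048 for triglyceride synthesis. ATPCL was at 0.0088 with array weights and -0.015 with median-centred arrays, and the medians of fatty acid elongation and triglyceride synthesis were 0.032 and 0.18 with array weights. With the yolk covariate the SREBP list median was 0.027. Leaving out 1 array at a time, the median ran from 0.0037 to 0.098 for fatty acid elongation and from -0.060 to 0.031 for SREBP processing. Without both pulsed replicate 2 and unpulsed replicate 3, a refit added after seeing the data, the former was 0.0087. Of the 5 genes most like sug, 0 were shared with the ranking on unadjusted values. In 435 of 465 recomputed values the change was under 1 SD of the replicates or left the count alike. This share does not measure robustness, since the replicate block, batch term, dim filter and trended spread cannot change the difference of a gene. The SD also includes outlying arrays. For tobi it was 0.76, so the change from 0.61 to 0.075 log2 units without unpulsed replicate 3 counted as under 1 SD. The sug difference stayed below 0 in all 19 refits, which supports nothing, since sug was chosen for this contrast. The filter on dim probe sets removed ATPCL, so it has no value there. For the other cases the cause was not tested.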
